A study of Mus musculus with 22 samples.

Results

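The response of MK2/3-/- macrophages to 6 h of lipopolysaccharide (LPS) was described from 7 of the 22 arrays of the series, namely 4 arrays of LPS-treated and 3 of medium-treated MK2/3-/- bone marrow-derived macrophages (BMDM), chosen by the titles of their samples. BMDM are obtained by letting bone marrow cells mature into macrophages in a dish, and LPS is a glycolipid on the surface of Gram-negative bacteria. All animals were male mice of the strain C57BL/6. The MK2/3-/- animals lacked the protein kinases MK2 and MK3, in the treated and in the control cells alike, and were 11, 12, 14 and 12 weeks old for LPS replicates 1 to 4 and 11, 12 and 12 weeks old for medium replicates 1 to 3. LPS was given at 100 ng/ml for 360 min, and control cells were kept for the same time in medium. Arrays of wild-type (wt, 3 LPS and 4 medium) and MK2-/- BMDM (4 and 4) entered the same model and served here only for comparison. RNA was labelled with 1 dye and hybridised to whole-genome mouse arrays, and values are quantile-normalised processed signals on the log2 scale, so that a difference of 1 is a 2-fold change.

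LPS is recognised by Toll-like receptor 4 (TLR4), which signals through the adaptors MyD88 and TRIF to NF-kB, to interferon regulatory factors and to the mitogen-activated protein kinases, among them p38. MK2 and MK3 are kinases that p38 phosphorylates, and they are known for stabilising and releasing for translation the AU-rich mRNAs of cytokines through the protein TTP (Zfp36). In macrophages the p38 and MK2 branch is best known for the production of TNF, IL-6 and IL-10.

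The 7 arrays had a median processed signal of 54.1 to 103, and the share of probes well above background was 66.8% to 75.5%, which is a mark that the scanner software sets for each spot. Both treatments lay on 1 slide that was scanned once, and this slide held no other genotype. Arrays of the same treatment correlated with r between 0.954 and 0.982 across genes, and arrays of different treatment with r between 0.854 and 0.901. As defining macrophage markers, 7 of 8 listed genes were tested and all 7 were above background on every array, with Adgre1, the F4/80 antigen, at 16.27, 16.71 and 16.45 in medium and 16.28, 16.59, 15.95 and 16.27 with LPS. The summed signal of these markers was 555000 to 645000 in medium and 335000 to 361000 with LPS. Collagen transcripts, which mark fibroblasts, set some arrays apart: Col1a1 stood at 4.90, 7.85 and 13.78 in medium and 5.77, 7.25, 10.58 and 13.19 with LPS, so that medium replicate 3 and LPS replicates 3 and 4 were above the others in both treatments. Col1a2 and Col3a1 were highest on the same arrays, whereas Dcn (decorin), another fibroblast marker, stood at 5.83, 5.98 and 6.71 in medium and 8.53, 8.92, 8.83 and 6.33 with LPS and was lowest of the LPS arrays on replicate 4. Counts for the remaining 4 arrays are given below for mitosis, DNA replication and the response differences from wt. Counts of other lists moved on them too, among them inflammasome genes, to 7 higher and 3 lower from 10 and 5. For ribosomal proteins the count moved to 31 lower from 27. Replicates came from independent experiments, according to the methods of the study. In bulk RNA, fewer cells of a type and less RNA per cell cannot be told apart.

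LPS changed 47.8% of the tested genes of MK2/3-/- BMDM within 6 h, with more genes falling than rising and with the largest changes among the rises. Of 22384 genes tested with limma, 4534 (20.3%) were called higher and 6157 (27.5%) lower at a Benjamini-Hochberg adjusted p below 0.05. These shares are the background for the list counts below. Called falls came near 27.5% for chemokine receptors (30%), interferon signalling (22.22%), AP-1 and related factors (23.33%), mediator enzymes (33.33%) and inflammasome genes (31.25%). At least 4-fold changes were called for 1173 genes upwards (5.24%) and 2227 downwards (9.95%). At a threshold of 64-fold the order turned, with 122 genes higher and 39 lower. All 4 LPS arrays lay above all 3 medium arrays for 21.4% of the genes and below them for 28.4%. The median difference over all genes was 0.02, that of the genes called higher 1.19 and that of the genes called lower -1.59. Of the 10691 calls, 8381 were kept with the same sign when each of the 7 arrays was left out in turn, and of the 3400 calls of at least 4-fold, 3325 were kept. Without any normalisation between arrays the split was 1680 higher against 7265 lower, and the median of all genes was -0.48. With each array scaled to its 75th percentile instead, the counts were 5428 and 5030 and the median of all genes was 0.24. Small differences of abundant transcripts therefore depend on the scaling, and those affected are named below.

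**Figure D1:**
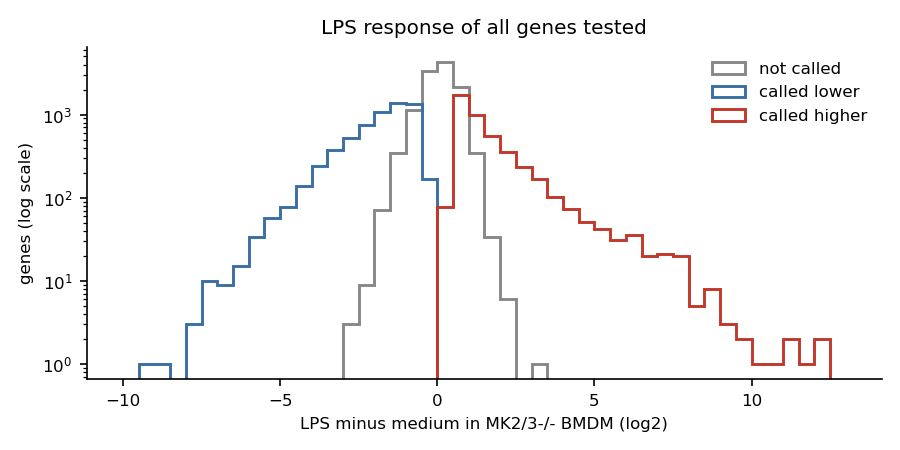
Numbers of genes (log scale) by their difference between LPS and medium in MK2/3-/- BMDM, in steps of 0.5 on the log2 scale, drawn as 1 outline for genes called higher, 1 for genes called lower and 1 for genes not called. Called falls outnumber called rises at moderate sizes, and the rises reach further, to 12.48.

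The targeted kinases were read first, as a check of the labels. The probe of Mapkapk2, which encodes MK2, was above background on all 7 arrays at 8.47, 8.50 and 8.34 in medium and 10.90, 11.21, 10.85 and 11.07 with LPS, against means of 11.92 in medium-treated and 14.96 in LPS-treated wt BMDM. It rose with LPS by 2.57 ± 0.32 (SE, adjusted p = 1.47e-06). The probe of Mapkapk3, which encodes MK3, stood at 11.15, 10.95 and 11.40 in medium and 7.64, 8.06, 7.72 and 8.54 with LPS, while wt BMDM had means of 13.12 and 12.12. All 4 LPS arrays lay below all 3 medium arrays, and the fall was -3.18 ± 0.24 (SE, adjusted p = 2.64e-09). Both transcripts were thus still read in the double-deficient cells, at lower levels than in wt. Whether the probes lie outside the deleted parts was not given in the sources used here, and slide and genotype cannot be told apart in that comparison of levels.

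The largest rises were those of cytokines, chemokines and enzymes of inflammatory mediators. Il1a, which encodes interleukin-1 alpha (NM_010554), stood at 3.61, 1.99 and 1.99 in medium and 15.46, 14.80, 15.19 and 14.58 with LPS, a value not well above background on any medium array, so that the rise was at least 3594-fold on the processed signal (adjusted p = 8.77e-10). Such bounds depend on the background correction, as explained below. Il6 (NM_031168), the cytokine of fever and the acute-phase response, stood at 6.56, 5.15 and 6.13 in medium and 18.13, 17.97, 18.07 and 18.08 with LPS, a rise of 12.12 ± 0.94 (SE, adjusted p = 4.54e-09) or 4444-fold. For both cytokines a wide gap separated the treatments, and for Il6 the LPS arrays lay close together. Cxcl9, a chemokine for T cells that interferon gamma is known to induce, went from 6.32, 5.58 and 5.28 to 17.29, 17.47, 16.87 and 17.02 (difference 11.43 ± 0.87 SE, adjusted p = 3.46e-09). Ptgs2, the inducible cyclooxygenase, was measured at 6.84, 6.15 and 8.29 in medium and 17.61, 17.48, 17.23 and 16.95 with LPS, and rose by 10.22 ± 0.76 (SE, adjusted p = 2.88e-09). Hdc, the enzyme that makes histamine, stood at 14.64, 14.45, 14.54 and 14.57 with LPS, again close together, against 5.12, 4.76 and 4.66 in medium (9.71 ± 0.69 SE, adjusted p = 1.58e-09). Gfi1, a transcriptional repressor of blood cell development, was at background in medium and at 14.02, 14.08, 13.19 and 12.84 with LPS, at least 1537-fold higher. Edn1 (endothelin-1) rose by 9.62, Plat (tissue-type plasminogen activator) by 9.30 and Cd40, the receptor of CD40 ligand, by 8.84.

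**Figure D2:**
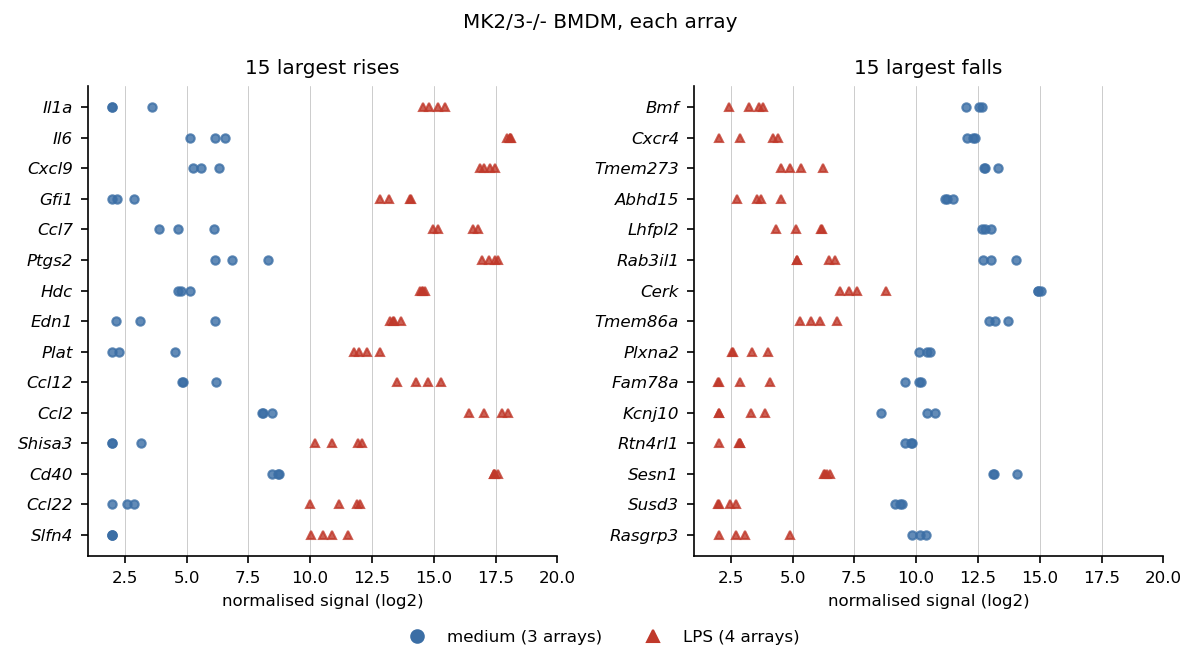
Normalised signal (log2) of each MK2/3-/- array for the 15 genes with the largest rise (left) and the 15 with the largest fall (right), with circles for 3 medium arrays and triangles for 4 LPS arrays. The treatments do not overlap for any of these genes, which the choice of genes required; Il6 sits near 18.1 with LPS and Bmf between 2.42 and 3.79.

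Some genes were detected in only 1 of the treatments. Of 22384 genes tested, 77 were above background on all 4 LPS arrays and on no medium array, and all 77 were called higher. In the other direction, 335 genes were above background on all medium arrays and on no LPS array, and 300 of these were called lower. These genes were chosen on the same arrays that gave the calls, so the calls follow largely from the choice and add no support. The highest bounds upwards, after Il1a and Gfi1, belonged to Ccl22, a chemokine for regulatory T cells (at least 313-fold), Vgf, a neuroendocrine secretory protein (at least 312-fold) and Shisa3 (at least 302-fold). Tnfsf4, the OX40 ligand, was at least 260-fold higher and Slfn4, a Schlafen family gene, at least 222-fold. Each bound sets the LPS mean against the lowest signal called well above background, or the probe's own where that was higher. The bounds hold for the processed signal and are not lower limits under another background correction. With the normexp background correction and its offset of 50 the log2 differences of these genes were smaller, with 8.73 for Il1a, 7.27 for Gfi1 and -6.05 for Bmf, still called.

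Pro-inflammatory cytokines rose as a group. Of 17 tested members of the list, 16 were called higher and 0 lower, with a median difference of 6.20, against 20.3% of all genes called higher. Tnf (NM_013693), the cytokine whose mRNA is the best known target of this kinase branch, stood at 10.48, 10.30 and 9.76 in medium and 16.99, 16.79, 17.35 and 17.13 with LPS and rose by 6.89 ± 0.47 (SE, adjusted p = 1.07e-09). Il1b stood at 11.61, 10.33 and 9.41 in medium and 18.36, 18.12, 18.18 and 18.03 with LPS, so that the medium arrays spread far more than the LPS arrays, and it rose by 7.72 ± 0.75 (SE, adjusted p = 7.33e-08). Tnfsf10 (TRAIL) rose by 7.86 (adjusted p = 1.69e-08), and Tnfsf15 (TL1A), Il27 and Tnfsf9 (4-1BB ligand) by 7.32, 6.27 and 6.20. Il12a and Il23a, subunits of IL-12 and IL-23, were not well above background on any medium array and were at least 56.2-fold and at least 8.56-fold higher with LPS. Among the smaller called rises, Il18 changed by 4.31 and Osm (oncostatin M) by 3.48. Lif was the only member not called (0.95, adjusted p = 0.181).

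Among anti-inflammatory cytokines and their receptors, 7 of 11 were called higher and 0 lower, with a median of 1.61. Il10 (NM_010548), which restrains macrophage activation, stood at 6.30, 7.33 and 6.63 in medium and 10.63, 11.75, 12.20 and 12.49 with LPS, and rose by 5.02 ± 0.48 (SE, adjusted p = 7.16e-08). LPS replicate 1 was the lowest of the treated arrays for Il10 and also for Il19, a cytokine of the IL-10 family, which stood at 4.74, 5.68 and 4.51 in medium and 9.59, 11.69, 11.47 and 11.89 with LPS and rose by 6.18 ± 0.72 (SE, adjusted p = 7.47e-07), or 9.90 with another probe. Il1rn, the antagonist of the IL-1 receptor, rose by 7.71 (adjusted p = 3.05e-09), and Il18bp, which neutralises IL-18, by 3.78. The receptor chains Il4ra, Il13ra1 and Il10ra rose by 1.61, 2.70 and 0.82, whereas Il24 (0.55, adjusted p = 0.0952) and Tgfb1 (-0.15, adjusted p = 0.6) were not called.

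Of 20 chemokines, 17 rose and 1 fell, with a median difference of 5.82. The monocyte chemokines Ccl2, Ccl7 and Ccl12 were all among the 15 largest rises. Ccl2 stood at 8.07, 8.46 and 8.07 in medium and 17.02, 16.43, 17.78 and 18.02 with LPS, and its LPS replicates 3 and 4 were above replicates 1 and 2. The same arrays were the higher ones for Ccl7, at 3.90, 4.66 and 6.11 in medium and 15.16, 14.96, 16.79 and 16.58 with LPS, and for Ccl12, at 6.19, 4.87 and 4.82 in medium and 13.50, 14.30, 15.29 and 14.75 with LPS. The differences were 9.11 ± 0.46 (SE, adjusted p = 5.00e-11), 10.99 ± 0.70 (SE, adjusted p = 4.38e-10) and 9.17 ± 0.58 (SE, adjusted p = 4.41e-10) in this order. The neutrophil chemokines Cxcl1, Cxcl2 and Cxcl3 rose by 7.30, 7.08 and 6.37, and Cxcl10, a chemokine of the interferon response, by 7.11 (adjusted p = 3.77e-08). Ccl5 was abundant without LPS, at 16.23, 16.64 and 15.39, and reached 18.60, 18.47, 18.63 and 18.39, a rise of 2.43 ± 0.55 (SE, adjusted p = 0.00118). Cxcl14, a constitutive chemokine of epithelia, fell from 13.08, 13.85 and 13.86 to 10.77, 10.44, 12.29 and 11.99 (-2.22 ± 0.48 SE, adjusted p = 7.62e-04). Among chemokine receptors and adhesion molecules, 11 of 20 rose and 6 fell. Fpr2 and Fpr1, receptors of formyl peptides, rose by 8.03 and 6.20, Vcam1 and Icam1, which bind integrins, by 7.10 and 5.18, and Ccr7, the receptor of lymph node chemokines, by 5.49. Cxcr4, the receptor of CXCL12, fell from 12.38, 12.05 and 12.30 to 2.87, 4.39, 2.01 and 4.19 (-8.88 ± 0.62 SE, adjusted p = 1.23e-09), and 1 of the 4 LPS arrays read it above background. Cx3cr1, the fractalkine receptor, fell by 4.92 (adjusted p = 1.14e-09), and Ccr2, the receptor of CCL2, with -2.67 (adjusted p = 0.0026).

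The 3 tested colony-stimulating factors rose and their receptors did not. Csf2 (GM-CSF) and Csf3 (G-CSF) were below background on all medium arrays and at 7.96, 7.45, 8.89 and 8.58 and 5.76, 8.02, 8.21 and 6.25 with LPS, at least 38.7-fold and at least 17.3-fold higher. Csf1 (M-CSF) stood at 5.84, 7.68 and 10.44 in medium and 13.99, 13.14, 13.91 and 14.07 with LPS, a wide spread among the medium arrays, and rose by 5.80 ± 0.96 (SE, adjusted p = 5.31e-05). Csf1r, the receptor of M-CSF and a macrophage marker, fell by 0.92 (adjusted p = 1.49e-05), Csf3r with -0.92 (adjusted p = 0.0275) and Csf2rb2 with -0.99 (adjusted p = 0.00712). These 3 receptor falls were not called with scaling to the 75th percentile, where the median of the list was 0.30 against -0.42.

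Antiviral interferon-stimulated genes rose throughout. All 28 tested members of this list were called higher, with a median of 4.34, and the count was 28 in every alternative setting. Ifnb1 (NM_010510), the interferon that LPS is known to induce through TRIF, stood at 4.23, 1.99 and 2.82 in medium and 9.74, 8.43, 10.04 and 10.68 with LPS, and rose by 6.71 ± 0.74 (SE, adjusted p = 4.03e-07). Rsad2 (viperin), which makes an antiviral nucleotide, stood at 10.60, 9.74 and 8.90 in medium and 17.31, 17.13, 17.29 and 17.69 with LPS and rose by 7.61 ± 0.57 (SE, adjusted p = 3.28e-09). Isg15, the ubiquitin-like modifier, stood at 14.19, 13.29 and 12.24 in medium and 18.65, 18.43, 18.57 and 18.57 with LPS, so that medium replicate 1 was the highest and medium replicate 3 the lowest of the untreated arrays, and rose by 5.32 ± 0.46 (SE, adjusted p = 1.80e-08), or 6.71 with another probe. The same order of the medium arrays held for Rsad2, and the medians of the whole list relative to the medium mean were 0.60, -0.01 and -0.55 on the medium arrays and 4.29, 4.39, 4.14 and 4.35 on the LPS arrays. Cmpk2, Usp18 and Oasl1 rose by 7.52, 7.02 and 6.96, and the smallest called rise was that of Bst2 (tetherin), 1.63 (adjusted p = 1.41e-04). Of the guanylate-binding proteins and immunity-related GTPases, which attack the vacuoles of intracellular microbes, 13 of 14 rose and 0 fell, with a median of 5.44. Gbp2 stood at 11.80, 10.18 and 9.85 in medium and 18.07, 17.95, 17.58 and 17.81 with LPS and rose by 7.24 ± 0.58 (SE, adjusted p = 7.03e-09), and Gbp5 and Gbp4 rose by 7.92 and 6.91. Gbp8 was not called (-0.37, adjusted p = 0.761). Within interferon signalling, 10 of 18 genes rose and 4 fell. The transcription factors Irf7, Irf1, Irf8, Stat2 and Stat3 rose by 4.71, 2.37, 2.76, 2.82 and 3.01, and the kinase gene Jak2 by 3.81. The falls were those of the receptor genes Ifngr1 (-2.67, adjusted p = 1.07e-08), Ifnar1 (-1.31, adjusted p = 1.57e-04) and Ifnar2 (-0.87, adjusted p = 0.00129), and of Irf3 (-1.07, adjusted p = 0.0013).

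Of 15 NF-kB subunits, IkB proteins and IkB kinases, 14 rose and 0 fell, with a median of 3.12. Nfkbia (NM_010907), the inhibitor IkB alpha that NF-kB itself induces, stood at 15.20, 14.98 and 14.81 in medium and 18.05, 18.01, 18.28 and 18.14 with LPS and rose by 3.12 ± 0.17 (SE, adjusted p = 1.16e-10). Nfkbiz, a nuclear IkB protein needed for secondary cytokine genes, stood at 8.76, 8.89 and 8.41 in medium and 13.38, 13.36, 13.81 and 13.64 with LPS and rose by 4.86 ± 0.29 (SE, adjusted p = 2.50e-10). The subunit genes rose unequally, Rel by 4.71, Nfkb2 by 4.00, Nfkb1 by 3.12, Relb by 1.52 and Rela by 0.49 (adjusted p = 0.0237), and Ikbkg was not called (0.73, adjusted p = 0.066). Feedback inhibitors rose in 11 of 18 cases and fell in 3. Socs3, which blocks cytokine receptors, was at 10.33, 9.61 and 9.78 in medium and 17.03, 17.10, 17.08 and 17.03 with LPS, with LPS arrays that hardly differed, and rose by 7.15 ± 0.54 (SE, adjusted p = 3.24e-09). Tnfaip3 (A20), a deubiquitinase that ends NF-kB signalling, rose by 6.15 (adjusted p = 1.30e-10) and the RNase gene Zc3h12a (regnase-1) by 3.49 (adjusted p = 7.35e-09). Cish, a further cytokine signalling inhibitor, was not well above background on any medium array and at least 122-fold higher with LPS (adjusted p = 1.10e-09). Zfp36, which encodes TTP, the mRNA-destabilising protein controlled by MK2, stood at 9.15, 9.73 and 9.42 in medium and 11.63, 12.25, 10.88 and 11.39 with LPS and rose by 2.10 ± 0.35 (SE, adjusted p = 6.08e-05). Its family members went the other way, Zfp36l1 with -3.71 (adjusted p = 4.50e-09) and Zfp36l2 from 15.56, 15.45 and 15.72 to 11.18, 10.87, 10.02 and 11.09 (-4.78 ± 0.24 SE, adjusted p = 4.39e-11). The deubiquitinase gene Cyld also fell (-2.70, adjusted p = 7.33e-08).

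Of receptors and adaptors of the pathway, 11 of 23 were called higher (47.83%, against 20.3% of all genes) and 6 lower (26.09%, near the 27.5% of all genes). Without normalisation between arrays the counts were 6 and 6. Tlr4, the LPS receptor itself, stood at 11.73, 11.88 and 11.14 in medium and 8.20, 8.99, 8.85 and 9.12 with LPS and fell by 2.79 ± 0.26 (SE, adjusted p = 5.69e-08). Its co-receptors Cd14 and Ly96 (MD-2) rose by 1.28 and 0.84, and the adaptor genes Myd88, Ticam1 (TRIF) and Ticam2 by 2.77, 1.23 and 1.08. Tlr3, Tlr1 and Tlr6 rose by 3.49, 3.17 and 3.02, and Tlr13, a receptor of bacterial ribosomal RNA, fell by 3.57 (adjusted p = 1.91e-09). Tlr2 fell by 0.76 (adjusted p = 0.0123), but was not called with the replicate letter as a fixed block (-0.82, adjusted p = 0.074). The kinase genes Irak4 and Irak1 fell, with differences of -1.80 and -1.14, and Irak2 rose by 1.52.

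The promoters of 7 genes that rose together, and of Mcm5, a helicase subunit of DNA replication that fell, are printed below, because motifs of factors known for these programmes can be read in them. Each is the stretch of 250 bases before an annotated transcription start of RefSeq (build GRCm38.p6), written 5′ to 3′ on the strand of the gene, with matches to any of the motifs searched in capitals. The motifs were NF-kB (a 10-base consensus), the interferon-stimulated response element (ISRE, GAAANNGAA), AP-1 (TGANTCA), the cAMP response element (CRE, TGACGTCA) and E2F (TTTCCCGC or TTTGGCGC), all on both strands, and the TATA box (TATAAA) on the strand of the gene. Of the tested genes, 14566 had at least 1 window in the table.

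Il6 (chr5:30012864-30013113, forward strand): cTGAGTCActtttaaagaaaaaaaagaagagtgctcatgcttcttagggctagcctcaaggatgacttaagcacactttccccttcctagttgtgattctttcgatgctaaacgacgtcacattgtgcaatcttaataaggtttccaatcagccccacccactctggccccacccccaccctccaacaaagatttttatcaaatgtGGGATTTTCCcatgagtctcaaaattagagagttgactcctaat
Cxcl2 (chr5:90903649-90903898, forward strand): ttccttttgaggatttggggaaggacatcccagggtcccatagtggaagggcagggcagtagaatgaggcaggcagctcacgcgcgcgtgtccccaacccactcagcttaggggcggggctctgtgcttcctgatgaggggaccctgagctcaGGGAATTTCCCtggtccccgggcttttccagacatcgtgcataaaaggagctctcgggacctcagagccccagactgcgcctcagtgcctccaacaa
Cxcl10 (chr5:92348890-92349139, reverse strand): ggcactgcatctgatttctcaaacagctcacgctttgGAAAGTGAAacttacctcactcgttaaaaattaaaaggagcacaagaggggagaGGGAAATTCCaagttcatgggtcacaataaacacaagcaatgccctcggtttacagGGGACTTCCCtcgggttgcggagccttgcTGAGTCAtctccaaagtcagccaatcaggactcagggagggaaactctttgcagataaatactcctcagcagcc
Nfkbia (chr12:55492648-55492897, reverse strand): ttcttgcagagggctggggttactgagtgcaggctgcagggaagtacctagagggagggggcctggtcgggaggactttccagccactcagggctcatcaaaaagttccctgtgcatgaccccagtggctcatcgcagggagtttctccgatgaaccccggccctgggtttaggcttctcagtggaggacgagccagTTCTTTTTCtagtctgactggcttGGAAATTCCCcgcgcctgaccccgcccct
Ifit1 (chr19:34640639-34640888, forward strand): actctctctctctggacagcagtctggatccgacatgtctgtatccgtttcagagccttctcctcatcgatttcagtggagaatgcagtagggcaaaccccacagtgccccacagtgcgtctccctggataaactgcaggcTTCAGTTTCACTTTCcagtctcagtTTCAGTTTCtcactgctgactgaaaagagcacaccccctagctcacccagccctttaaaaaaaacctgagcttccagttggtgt
Isg15 (chr4:156200819-156201068, reverse strand): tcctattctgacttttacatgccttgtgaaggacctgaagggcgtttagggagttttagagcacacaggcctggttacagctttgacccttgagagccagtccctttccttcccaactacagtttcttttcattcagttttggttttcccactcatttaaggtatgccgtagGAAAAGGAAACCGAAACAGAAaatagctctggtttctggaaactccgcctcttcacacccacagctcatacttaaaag
Gbp2 (chr3:142620413-142620662, forward strand): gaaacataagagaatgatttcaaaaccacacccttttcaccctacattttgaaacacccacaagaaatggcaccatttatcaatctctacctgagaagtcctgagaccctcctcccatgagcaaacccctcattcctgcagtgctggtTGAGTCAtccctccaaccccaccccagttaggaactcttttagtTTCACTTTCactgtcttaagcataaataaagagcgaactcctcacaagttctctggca
Mcm5 (chr8:75109259-75109508, forward strand): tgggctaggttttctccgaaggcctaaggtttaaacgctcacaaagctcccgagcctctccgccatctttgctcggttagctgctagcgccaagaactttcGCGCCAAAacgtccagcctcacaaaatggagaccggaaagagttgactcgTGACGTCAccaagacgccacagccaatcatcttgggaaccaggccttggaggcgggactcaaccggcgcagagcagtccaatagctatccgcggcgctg

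Il6 held 1 NF-kB match, starting 44 bases before the start, and Cxcl2 a pair of overlapping ones. Cxcl10 held NF-kB matches 159 and 103 bases before the start together with an ISRE match at 213 and an AP-1 match at 74. In the genes of the interferon programme the ISRE matches lay close to the start, from 109 to 84 bases before it in Ifit1, from 78 to 66 in Isg15 and at 58 in Gbp2. Mcm5 held an E2F match at 149 and a CRE match at 99. Over windows of 300 bases, which run on to 50 bases after the start, NF-kB matches were in 8.15% of the windows of genes called at least 4-fold higher, 5.04% of those at least 4-fold lower, 5.04% of those of all tested genes and 4.51% of all windows of the table. In the same order, the shares were 13.8%, 6.16%, 7.71% and 8.56% for ISRE, 9.80%, 4.85%, 6.58% and 7.81% for AP-1, and 1.65%, 3.20%, 2.32% and 1.56% for E2F. For CRE they were 3.20%, 3.01%, 2.51% and 1.79%, and for the TATA box 8.92%, 3.69%, 7.06% and 8.32%. By list, ISRE matches were in 9 of 10 windows of guanylate-binding proteins and related GTPases and 13 of 25 of antiviral genes, NF-kB matches in 8 of 18 windows of the NF-kB list, and E2F matches in 12 of 34 windows of DNA replication genes. Other pairs matched less well. E2F matches were in 0 of 26 windows of mitosis genes and NF-kB matches in 2 of 13 of pro-inflammatory cytokines. ISRE matches were in 8 of 31 windows of ribosomal proteins, of which 0 were called higher. These are descriptions of letters in fixed windows, and no binding was measured.

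Within the p38 pathway, in which the deleted kinases stand, 12 of 24 genes rose and 6 fell (25%, near the 27.5% of all genes). The median was 0.57, and -0.09 without normalisation between arrays. Mapk14, which encodes p38 alpha, the kinase above MK2, stood at 13.71, 13.95 and 13.86 in medium and 7.91, 8.79, 9.19 and 9.93 with LPS, and fell by 4.88 ± 0.34 (SE, adjusted p = 1.07e-09). Another probe of the gene gave a smaller fall, -2.72. Map2k6 and Mknk2 fell, with differences of -2.26 (adjusted p = 1.61e-04) and -3.71 (adjusted p = 7.03e-11). The phosphatase genes Dusp2, Dusp5, Dusp4, Dusp16 and Dusp1, whose products switch MAP kinases off, rose by 7.42, 5.51, 3.04, 2.65 and 2.54. Dusp1, the phosphatase best known for p38, stood at 12.73, 12.23 and 12.27 in medium and 14.64, 15.28, 14.95 and 14.93 with LPS, with no overlap between treatments, and Dusp6, which acts on ERK, fell by 1.51 (adjusted p = 0.0174). Map3k8 (TPL-2), a kinase of the ERK branch, rose by 2.94.

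Transcription factors of the AP-1, ATF, KLF and NR4A families rose in 16 and fell in 7 of 30 cases. Batf and Batf2, partners of IRF and JUN proteins, rose by 6.33 (adjusted p = 3.43e-10) and 5.20 (adjusted p = 2.89e-10), and Junb, Maff and Egr1 by 2.27, 3.85 and 2.56. Fos and Jun, which LPS is known to induce within the first hour, were lower at 6 h, Jun at 13.87, 13.56 and 13.28 in medium and 11.81, 11.24, 10.89 and 11.70 with LPS (difference -2.16 ± 0.47 SE, adjusted p = 7.44e-04) and Fos with -3.01 (adjusted p = 2.77e-07). Cebpa, a factor of myeloid differentiation, fell from 12.25, 13.23 and 12.82 to 6.45, 6.54, 7.52 and 6.94 (-5.90 ± 0.33 SE, adjusted p = 1.06e-10), and Klf2 and Klf4 fell, with differences of -3.41 and -2.06. Cebpb and Atf3 showed called rises of less than 2-fold (0.73, adjusted p = 0.0233, and 0.80, adjusted p = 0.044). That of Cebpb was not called with the replicate letter as a fixed block (0.90, adjusted p = 0.0599), and that of Atf3 was lost in 14 of 41 alternative settings.

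Enzymes of inflammatory mediators rose and fell in 9 and 7 of 21 cases, with a median of -0.11 that was 0.63 with scaling to the 75th percentile. Nos2, the inducible nitric oxide synthase, stood at 8.80, 8.67 and 8.83 in medium and 16.11, 15.58, 16.40 and 15.998 with LPS and rose by 7.25 ± 0.51 (SE, adjusted p = 1.55e-09). Acod1, which makes itaconate, stood at 12.27, 10.28 and 9.77 in medium and 18.63, 18.42, 18.65 and 18.72 with LPS and rose by 7.83 ± 0.79 (SE, adjusted p = 1.14e-07). Slc7a2 and Ass1, which supply arginine for nitric oxide, rose by 5.86 and 2.72, and Gch1, which makes its cofactor, by 4.79. Of the prostaglandin and leukotriene genes, Pla2g4a rose with Ptgs2 (3.37, adjusted p = 4.67e-09). Ptgs1, the constitutive cyclooxygenase, fell from 12.54, 13.36 and 12.69 to 10.18, 10.13, 11.27 and 10.95 (-2.23 ± 0.32 SE, adjusted p = 9.33e-06), and Tbxas1, Hpgds, Lta4h and Alox5ap fell, with differences of -2.04, -1.86, -1.95 and -1.74. Ptges was not called (-0.11, adjusted p = 0.742).

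NOD-like receptors and inflammasome genes rose in 10 and fell in 5 of 16 cases, and in 11 and 3 with scaling to the 75th percentile. Nlrp3, the sensor whose induction primes the inflammasome, stood at 7.83, 7.61 and 7.53 in medium and 11.60, 11.52, 11.79 and 11.24 with LPS and rose by 3.88 ± 0.21 (SE, adjusted p = 9.19e-11). Casp4, which binds LPS inside the cell, rose by 4.50 (adjusted p = 2.01e-10) and Nod1 by 4.84 (adjusted p = 4.19e-11). P2rx7, the ATP receptor that triggers NLRP3, fell by 4.99 (adjusted p = 7.00e-08), against -2.90 and -1.64 with the other probes of the gene, and Nlrp1b and Nlrc4 with -2.82 and -1.82. Of 26 apoptosis and necroptosis genes, 16 rose and 3 fell, and 11 and 6 did so without normalisation between arrays. Cflar (c-FLIP), an inhibitor of caspase-8, stood at 9.21, 9.35 and 9.05 in medium and 14.51, 15.05, 15.26 and 15.25 with LPS and rose by 5.82 ± 0.34 (SE, adjusted p = 1.64e-10), and Traf1, Birc3 and Bcl2l1 (BCL-xL), further survival genes, rose by 5.92, 3.15 and 2.15. Genes with the opposite role rose as well, Fas by 4.35 (adjusted p = 1.89e-09), Mlkl, the pore of necroptosis, by 4.12 (adjusted p = 1.96e-08) and Bcl2l11 (BIM) by 3.12 (adjusted p = 2.77e-09). Bmf, a BH3-only protein that promotes apoptosis, showed the largest fall of all named genes. It stood at 12.53, 12.01 and 12.67 in medium and 3.79, 3.63, 2.42 and 3.23 with LPS, was not well above background on any LPS array, and was at least 410-fold lower (adjusted p = 4.19e-11).

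Genes for contact with T cells were called higher in 8 and lower in 1 of 10 cases. Cd40 stood at 8.47, 8.72 and 8.72 in medium and 17.59, 17.43, 17.43 and 17.47 with LPS (difference 8.84 ± 0.56 SE, adjusted p = 4.41e-10), Cd69 rose by 8.69 (adjusted p = 2.14e-10), Cd274 (PD-L1) by 6.23 (adjusted p = 6.03e-09) and Cd86 by 3.56 (adjusted p = 1.09e-07). For Cd80 the probes disagreed, with -3.03 (adjusted p = 3.95e-08) for the brighter probe and 2.80 (adjusted p = 2.39e-05 over all probes) for another, so no direction is given. MHC class I presentation rose in 11 of 15 genes, among them Nlrc5, its transactivator (4.32, adjusted p = 3.53e-10), Tap1, the peptide transporter (3.87, adjusted p = 7.24e-11) and the immunoproteasome genes Psmb9, Psmb10 and Psmb8 (1.87, 1.75 and 1.46). The heavy chain gene H2-K1 and B2m were not called (-0.01, adjusted p = 0.968, and 0.02, adjusted p = 0.942). With scaling to the 75th percentile, 14 genes of the list were called higher and the difference of H2-K1 was 0.86. Among complement and acute-phase genes 9 of 17 rose, with Saa3 at 10.01, 8.32 and 7.69 in medium and 15.96, 17.09, 17.30 and 15.42 with LPS (7.77 ± 0.94 SE, adjusted p = 1.22e-06). Cfb, C3 and Lcn2 rose by 6.52, 3.90 and 4.75, while the C1q chains C1qa, C1qb and C1qc were not called (-0.27, 0.08 and -0.46). Of matrix proteases and their inhibitors 10 of 18 rose. Mmp13, a collagenase, stood at 10.11, 9.35 and 9.60 in medium and 18.08, 18.02, 18.23 and 17.57 with LPS (8.29 ± 0.64 SE, adjusted p = 4.46e-09), and Adamts4 and Timp1 rose by 7.89 and 3.95. Plau (urokinase) fell by 3.50 (adjusted p = 5.00e-05), while its receptor gene Plaur rose by 3.40 (adjusted p = 1.61e-05). Of the phagocytic receptors 9 of 21 rose and 4 fell (42.86% and 19.05%, against 20.3% and 27.5% of all genes). Clec4e (Mincle), the Fc receptor genes Fcgr4 and Fcgr2b, and Msr1 rose by 4.76, 4.10, 3.55 and 2.80, and Stab1, Trem2 and Scarb1 fell, with differences of -2.18, -1.79 and -1.77.

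**Figure D3:**
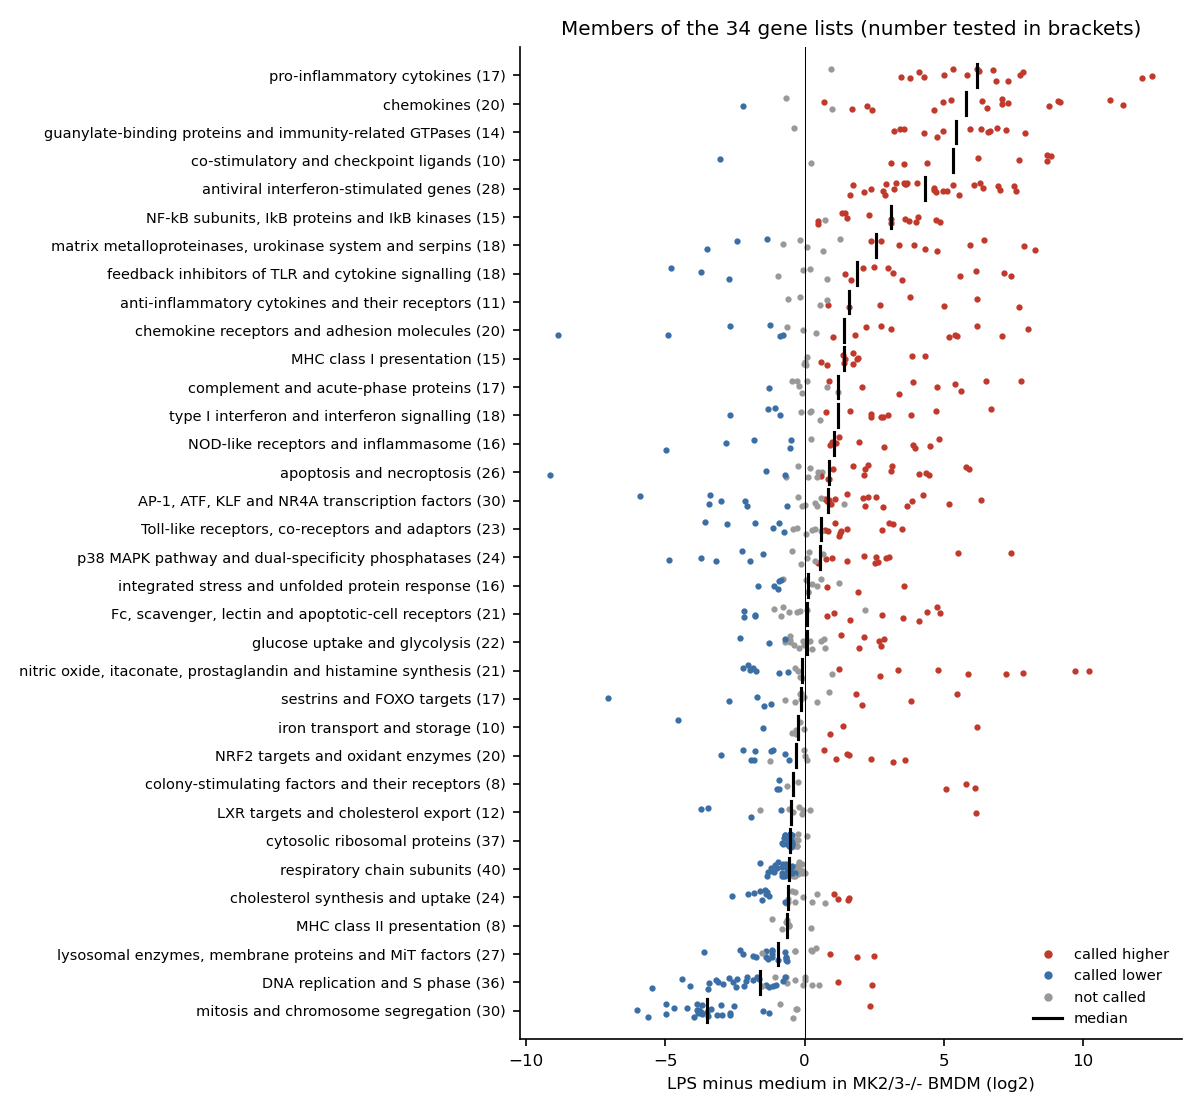
Difference between LPS and medium (log2) of each tested member of the 34 gene lists in MK2/3-/- BMDM, ordered by the list's median (black bar), with red points for genes called higher, blue for genes called lower and grey for genes not called. The medians run from 6.20 for pro-inflammatory cytokines to -3.49 for mitosis, against 0.02 over all genes tested.

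The largest falls, after Bmf and Cxcr4, were of genes with diverse roles. Cerk, which phosphorylates ceramide, fell from 14.92, 15.05 and 14.94 to 7.27, 6.93, 7.61 and 8.79 (-7.32 ± 0.33 SE, adjusted p = 3.17e-11), and another probe of the gene gave a smaller fall, -2.55. Sesn1, a sestrin that restrains mTORC1, fell from 13.12, 14.06 and 13.16 to 6.33, 6.51, 6.40 and 6.28 (-7.07 ± 0.30 SE, adjusted p = 2.60e-11), with the LPS arrays close together. Tmem86a, a lysoplasmalogenase, fell by 7.29 (adjusted p = 5.00e-11), and Rab3il1, an exchange factor of Rab proteins, with -7.37 (adjusted p = 5.71e-10). Plxna2, a semaphorin receptor, was below background on all LPS arrays and at least 98.8-fold lower, and Kcnj10, a potassium channel gene, at least 73.8-fold. Further bounds were at least 182-fold for Abhd15, where another probe gave -2.48 on the log2 scale, and at least 109-fold for the ubiquitin protease gene Usp2. Rasgrp3, an exchange factor of Ras, fell by 6.96 (adjusted p = 3.69e-09), and Lhfpl2 and Tmem273 with -7.37 and -7.69. Fam78a was at least 70.9-fold lower with the chosen probe, but another probe of the gene gave 0.23.

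Genes of cell division were the lists with the deepest falls. Of 30 mitosis genes, 25 fell and 1 rose, with a median of -3.49, against 27.5% of all genes called lower. Of 36 DNA replication genes, 24 fell and 2 rose, with a median of -1.59. Kif23, a motor protein of cytokinesis, stood at 8.91, 10.07 and 10.06 in medium and 1.99, 4.19, 2.97 and 5.5 with LPS (-6.02 ± 0.76 SE, adjusted p = 2.15e-06), and Bub1b, of the spindle checkpoint, at 9.15, 9.79 and 10.53 in medium and 3.74, 3.24, 4.26 and 5.48 with LPS (-5.64 ± 0.55 SE, adjusted p = 8.00e-08). Rrm2, a ribonucleotide reductase subunit, stood at 11.55, 12.08 and 13.63 in medium and 6.36, 7.15, 8.40 and 10.10 with LPS (-4.42 ± 0.73 SE, adjusted p = 5.22e-05). For Rrm2 the LPS arrays spread widely, with replicate 1 lowest and replicate 4 highest. Mcm2, of the replicative helicase, spread still more, at 9.64, 10.04 and 9.93 in medium and 2.54, 5.13, 7.38 and 8.0 with LPS (-4.11 ± 0.86 SE, adjusted p = 5.63e-04). Mcm3, Mcm4, Mcm5, Mcm6 and Mcm7 fell, with differences of -3.43, -2.92, -2.17, -1.87 and -2.72, and E2f2, an activating E2F factor, with -5.48 (adjusted p = 4.49e-10). Cdk1, the kinase of mitotic entry, fell by 3.68 (adjusted p = 2.69e-04), and another of its probes gave 0.63, which was not called, and a further one -4.59. Pcna stood at 15.74, 15.80 and 15.76 in medium and 14.81, 14.86, 15.08 and 15.79 with LPS and was not called (-0.63, adjusted p = 0.103). Against the rest of their lists, Tyms (thymidylate synthase) rose by 2.42 (adjusted p = 2.24e-07), Rfc3 by 1.20 (adjusted p = 0.00375) and Tpx2, a spindle assembly factor, by 2.36 (adjusted p = 8.51e-05). Relative to the medium mean, the median of the mitosis list was -0.76, 0.12 and 0.65 on the medium arrays and -4.08, -3.99, -2.98 and -2.38 on the LPS arrays, and that of DNA replication -0.28, -0.06 and 0.33 on the medium arrays and -2.11, -2.06, -1.06 and -0.88 on the LPS arrays. LPS replicates 3 and 4, the treated arrays with the higher collagen signal, had the smaller falls in both lists, and the part of fibroblasts in this was not tested. On the 4 arrays with low collagen signal, 24 of 30 mitosis and 23 of 36 DNA replication genes were called lower, with medians of -3.83 and -1.85.

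The cell cycle inhibitor gene Cdkn1a (p21) rose from 12.04, 11.67 and 12.18 to 16.15, 15.51, 15.93 and 15.56 (3.82 ± 0.31 SE, adjusted p = 6.64e-09), and the stress genes Gadd45b and Gadd45a rose by 5.47 and 2.06. In the list of sestrins and FOXO targets to which they belong, 4 of 17 were called higher and 5 lower, near the 20.3% and 27.5% of all genes, with falls of Txnip (-2.70, adjusted p = 7.41e-04), Foxo1 (-1.71, adjusted p = 8.33e-04) and Sesn1, while Sesn2 and Sesn3 were not called (-0.17 and -0.12). In the integrated stress and unfolded protein response, 3 of 16 genes were called higher and 5 lower, again near the shares of all genes. Ppp1r15a (GADD34), which reverses the translational block, rose by 3.57 (adjusted p = 5.49e-10), and Ddit3 (CHOP) was not called (0.45, adjusted p = 0.209).

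Lysosomal genes fell in 18 and rose in 3 of 27 cases, with a median of -0.97 that was -0.37 with scaling to the 75th percentile, where 6 members were called lower and 6 higher. Tfeb, the factor that drives lysosomal genes, stood at 9.59, 9.54 and 9.37 in medium and 5.64, 6.10, 6.20 and 5.64 with LPS and fell by 3.60 ± 0.25 (SE, adjusted p = 1.09e-09). Its relatives Tfec and Mitf rose by 1.87 (adjusted p = 0.001) and 0.91 (adjusted p = 0.00106). Npc1, the exporter of lysosomal cholesterol, Lipa, the acid lipase, and Gaa, the acid glucosidase, fell, with differences of -2.34, -2.22 and -1.86, and the protease gene Ctsc rose by 2.51 (adjusted p = 1.12e-07). Cholesterol synthesis fell in 10 and rose in 4 of 24 cases, and in 14 and 1 without normalisation between arrays. Dhcr7, of its last step, fell by 2.60 (adjusted p = 7.79e-06) and Sqle with -1.54 (adjusted p = 0.00885). For cholesterol synthesis, LPS replicate 2 was the lowest of its group, with a list median of -1.44 relative to the medium mean, against -0.40 to -0.33 on the other treated arrays. Ch25h, which makes the antiviral sterol 25-hydroxycholesterol, stood at 11.03, 10.92 and 10.69 in medium and 16.55, 16.84, 17.36 and 17.35 with LPS and rose by 6.15 ± 0.59 (SE, adjusted p = 6.64e-08). Of 12 LXR targets and cholesterol exporters, 1 was called higher and 4 lower (33.33%, near the 27.5% of all genes), and 2 and 2 with scaling to the 75th percentile. Abca1, the exporter of cholesterol to lipoproteins, fell from 11.63, 13.19 and 11.98 to 8.33, 9.93, 7.90 and 8.05 (-3.71 ± 0.60 SE, adjusted p = 4.04e-05), and Abcg1 with -1.93 (adjusted p = 0.0388). The call of Abcg1 was lost in 10 of 41 alternative settings.

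Of 40 respiratory chain subunits, 25 were called lower and 0 higher with a median of -0.57, which turned to 0.09 with scaling to the 75th percentile. Of 37 cytosolic ribosomal proteins, 27 were called lower with a median of -0.52, which turned to 0.27 under the same scaling, where 7 were called higher and 0 lower. With the replicate letter as a fixed block, 7 ribosomal and 15 respiratory chain genes were called lower. No direction of these abundant transcripts is therefore given as a result. The strongest members were Ndufb10 of complex I (-1.60, adjusted p = 3.42e-08), with 14.99, 15.01 and 14.90 in medium and 13.16, 13.14, 13.59 and 13.55 with LPS, and Sdhb of complex II (-1.34, adjusted p = 2.05e-06). In glucose uptake and glycolysis 6 of 22 were called higher and 3 lower, against 20.3% and 27.5% of all genes, and with scaling to the 75th percentile the counts were 11 and 1. Pfkp, Pfkfb3 and Slc2a1 (the glucose transporter GLUT1) rose by 2.85, 2.73 and 1.95, and Hif1a, the factor that drives glycolysis, by 2.13 (adjusted p = 8.16e-07). Hk2 and Ldha were not called (0.74, adjusted p = 0.0845, and 0.19, adjusted p = 0.652), and Pfkm, the muscle form of phosphofructokinase, fell by 2.32 (adjusted p = 3.30e-07). Of 20 NRF2 targets and oxidant enzymes, 7 rose and 9 fell, with a median of -0.30. With scaling to the 75th percentile 9 rose and 6 fell, and the median turned to 0.45, so no direction of the list is given. Sod2, the mitochondrial superoxide dismutase, rose from 15.29, 14.88 and 14.71 to 18.22, 18.04, 18.04 and 18.21 (3.17 ± 0.20 SE, adjusted p = 4.96e-10), and Slc7a11, the cystine importer, by 3.6 (adjusted p = 3.57e-05). Gclm and Hmox1 (heme oxygenase-1) fell, with differences of -3.00 (adjusted p = 1.58e-06) and -2.22 (adjusted p = 0.00536), but another probe of Hmox1 gave -1.20, which was not called. Of 10 genes of iron handling, 3 were called higher and 2 lower (30% and 20%, against 20.3% and 27.5% of all genes), and 1 and 4 without normalisation between arrays. Hamp (hepcidin) was below background on all medium arrays and at least 73.2-fold higher with LPS, and Slc40a1 (ferroportin), the iron exporter that hepcidin degrades, fell from 12.19, 12.16 and 10.75 to 8.24, 7.48, 6.69 and 6.17 (-4.56 ± 0.61 SE, adjusted p = 4.24e-06).

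MHC class II genes spread more among the arrays of a treatment than the means of the treatments differed. None of the 8 tested members was called by limma. H2-Aa stood at 14.12, 14.71 and 11.46 in medium and 13.71, 13.76, 10.82 and 12.15 with LPS, and Cd74, the invariant chain, at 15.99, 16.50 and 14.24 in medium and 16.39, 16.15, 13.55 and 14.00 with LPS. Medium replicate 3 and LPS replicates 3 and 4 were the low arrays of both treatments for both genes, and also for Ciita, the class II transactivator, except that LPS replicate 4 lay near LPS replicate 2 (8.63, 8.66 and 6.61 in medium and 8.97, 7.61, 5.48 and 7.10 with LPS). These were the arrays on which Col1a1 and Col1a2 were high, with Col1a2 at 8.34, 10.05 and 14.90 in medium and 8.83, 9.55, 12.61 and 14.30 with LPS. Medium replicate 3 and LPS replicate 4 shared a letter in the array names and the age of the animal. The differences between LPS and medium were -0.82 (adjusted p = 0.604) for H2-Aa, -0.55 (adjusted p = 0.665) for Cd74 and -0.67 (adjusted p = 0.452) for Ciita.

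**Figure D4:**
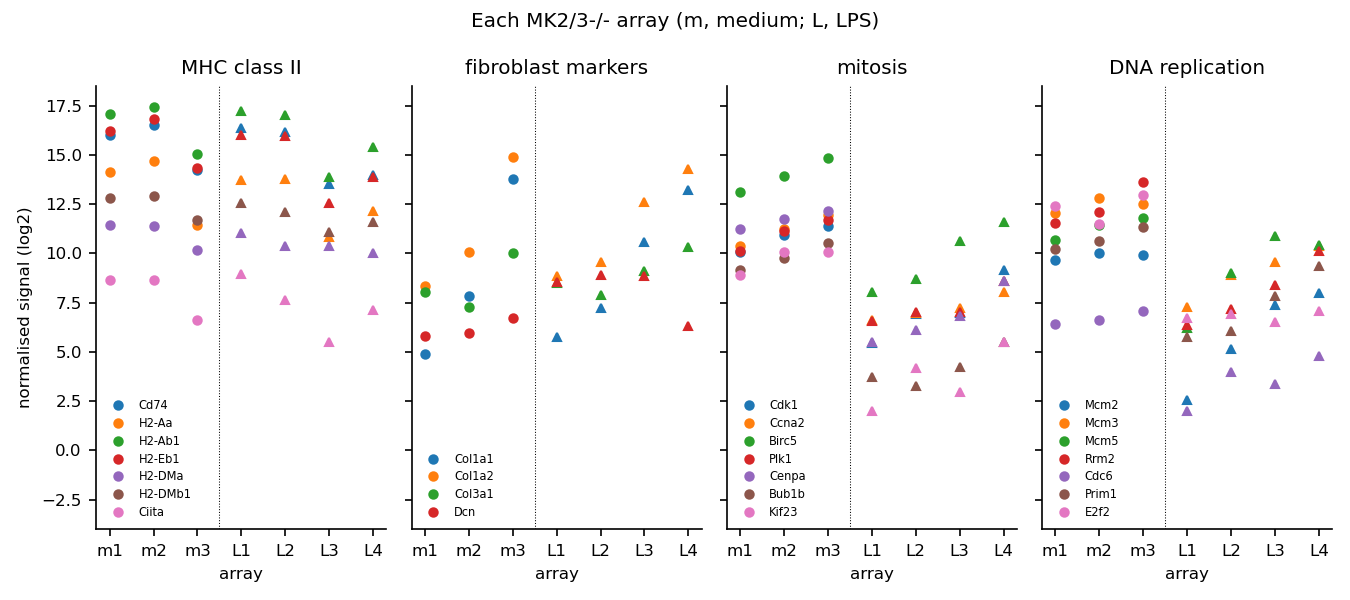
Normalised signal (log2) on each MK2/3-/- array (3 medium arrays, circles; 4 LPS arrays, triangles) for genes of MHC class II, fibroblast markers, mitosis and DNA replication, with 1 colour per gene. Cd74 and H2-Aa are lowest and Col1a1 and Col1a2 highest on medium replicate 3 and LPS replicates 3 and 4, and the mitosis genes lie lower on the LPS arrays than in medium.

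The response of MK2/3-/- BMDM followed that of the other genotypes for most genes. Of the 3400 genes called at least 4-fold in MK2/3-/- BMDM, 3066 were called with the same sign in wt and in MK2-/- BMDM. The medians of the lists can be set side by side, with 4.10 in wt, 4.35 in MK2-/- and 4.34 in MK2/3-/- BMDM for antiviral genes, 5.39, 4.76 and 6.20 for pro-inflammatory cytokines and -2.62, -3.68 and -3.49 for mitosis. A total of 1495 genes were called in MK2/3-/- BMDM alone, but 1232 of these had the same sign in both other genotypes and 7 were called in the test of the difference of responses from wt. That test called 146 genes (0.652%). The signed log2 response of MK2/3-/- BMDM was higher for 26 and lower for 120, where lower can mean a deeper fall. A fall with LPS was called in MK2/3-/- BMDM for 110 of the 146. The test against MK2-/- BMDM called 12 genes (0.0536%). At an unadjusted p below 0.05 there were 2531 and 1928 genes. Because each response is taken within 1 slide, a shift shared by all arrays of that slide drops out of these differences. The count against wt was not stable, since limma called 0, 9 and 13 genes without MK2/3-/- medium replicate 1, 2 or 3, 49, 79, 207 and 546 without LPS replicate 1, 2, 3 or 4, and 5 when the MK2-/- arrays were left out of the fit. Without medium replicate 1, 2274 genes had an unadjusted p below 0.05. It was 350 with the replicate letter as a random block within genotype, and that against MK2-/- BMDM was 23.

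The 6 genes called in both tests of the response were Mapkapk3, Adgrg5, Calcrl, Lck, Nol4l and Otor. Mapkapk3, 1 of the deleted genes, fell by 3.18 in MK2/3-/- BMDM, with -0.99 in wt and with -0.51 in MK2-/- BMDM, a difference of -2.18 ± 0.33 (SE, adjusted p = 0.0171) against wt and of -2.66 ± 0.32 (SE, adjusted p = 0.00245) against MK2-/-. Lck, a tyrosine kinase best known from T cells, stood at 8.22, 7.90 and 7.97 in medium and 13.60, 13.17, 12.65 and 13.81 with LPS, and its rise of 5.28 compared with 2.64 in wt and 2.75 in MK2-/- BMDM. The response was higher by 2.64 ± 0.38 (SE, adjusted p = 0.0171) and 2.53 ± 0.37 (SE, adjusted p = 0.015). Of the 6 listed T cell markers, 5 were tested, 1 was called higher in MK2/3-/- BMDM (Cd3d, adjusted p = 0.0341, above background on 2 LPS arrays and no medium array), and their summed signal was 6710 to 9110 in medium and 6640 to 12000 with LPS, and the part of T cells was not tested. Otor rose by 4.28, against 1.5 and 1.08, and Calcrl, a receptor subunit for calcitonin gene-related peptide and adrenomedullin, rose less, by 1.24 against 2.81 and 3.34. Nol4l fell by 2.78, against -0.59 in wt and -0.50 in MK2-/- BMDM. Adgrg5, an adhesion receptor, was below background on all MK2/3-/- LPS arrays and at least 2.77-fold lower than in medium, while the differences were 0.41 and 0.03 in the other genotypes. Leaving out each of the 22 arrays in turn ended the call against wt once each for Mapkapk3, Lck and Adgrg5 (without MK2/3-/- medium replicate 1), 9 times each for Otor and Nol4l and 19 times for Calcrl, and the call against MK2-/- BMDM in 0 cases for Mapkapk3, 2 for Lck, 10 for Otor, 11 for Calcrl, 15 for Adgrg5 and 18 for Nol4l. Against wt alone, the most negative differences in response were those of Prokr1 (-4.89), Stambpl1 (-3.90), Plxna2 (-3.74) and Lhfpl2 (-3.45). Of these, Plxna2 and Lhfpl2 fell further than in wt, with -7.25 against -3.51 and -7.37 against -3.92. The most positive differences were those of Ell3 (4.78), Armcx6 (2.85) and Mab21l3 (2.59). Leaving out 1 array at a time ended these calls 1, 1, 10, 9, 9, 13 and 4 times in the order named. Against MK2-/- BMDM, U90926, a non-coding RNA, rose by 3.98 instead of 10.11, a difference of -6.13 ± 0.91 (SE, adjusted p = 0.015), and was not called against wt. No tested pro-inflammatory cytokine, chemokine or antiviral gene was called in either test, and Il1a, Il6 and Cxcl9 rose by 12.48, 12.12 and 11.43 in MK2/3-/- BMDM beside 8.17, 8.13 and 7.24 in wt and 11.69, 12.21 and 9.82 in MK2-/- BMDM. Their medium means were 6.51, 9.59 and 7.82 in wt (SD 2.24, 2.92 and 2.46), against 2.53, 5.95 and 5.73 in MK2/3-/- BMDM. With LPS the means were 14.67, 17.72 and 15.06 in wt and 15.01, 18.06 and 17.16 in MK2/3-/- BMDM. For Il1a and Il6 the genotypes thus differed mainly in medium, and slide and genotype cannot be told apart in these levels. At an unadjusted p below 0.05, 7 of 17 cytokines and 3 of 20 chemokines differed in response from wt. Il10 rose by 5.02, against 6.55 and 6.03. Of the other lists, 7 members besides Mapkapk3 were called against wt, none of which was called against MK2-/- BMDM, and 5 of these are given here, chosen after their values were seen. Tlr2 fell by 0.76 in MK2/3-/- BMDM, while the difference was 1.26 in wt and 0.77 in MK2-/- (response against wt -2.01, adjusted p = 0.0203). Mapk14 (p38 alpha) fell further, with -4.88 against -2.79 and -2.94 (-2.09, adjusted p = 0.0486), and Il4ra rose less, by 1.61 against 4.00 and 2.80 (-2.38, adjusted p = 0.0331). Cebpd, a C/EBP factor of the acute-phase response, stood at 13.93, 14.10 and 13.29 in medium and 13.41, 14.68, 14.04 and 14.43 with LPS and was not called in MK2/3-/- BMDM (0.37, adjusted p = 0.388), against 2.96 in wt and 2.19 in MK2-/- (-2.59, adjusted p = 0.0246). Ppp1r15a rose more, by 3.57 against 1.97 and 2.76 (1.60, adjusted p = 0.0373). Collagen signal also differed between the genotypes, with mean Col1a1 of 12.41 in medium-treated and 12.56 in LPS-treated wt BMDM and of 8.84 and 9.20 in MK2/3-/- BMDM. Its part in the response differences was not tested. With only the 4 MK2/3-/- arrays of low collagen signal, 785 genes were called against wt. All wt arrays stayed in that fit, so the count cannot show the part of collagen.

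**Figure D5:**
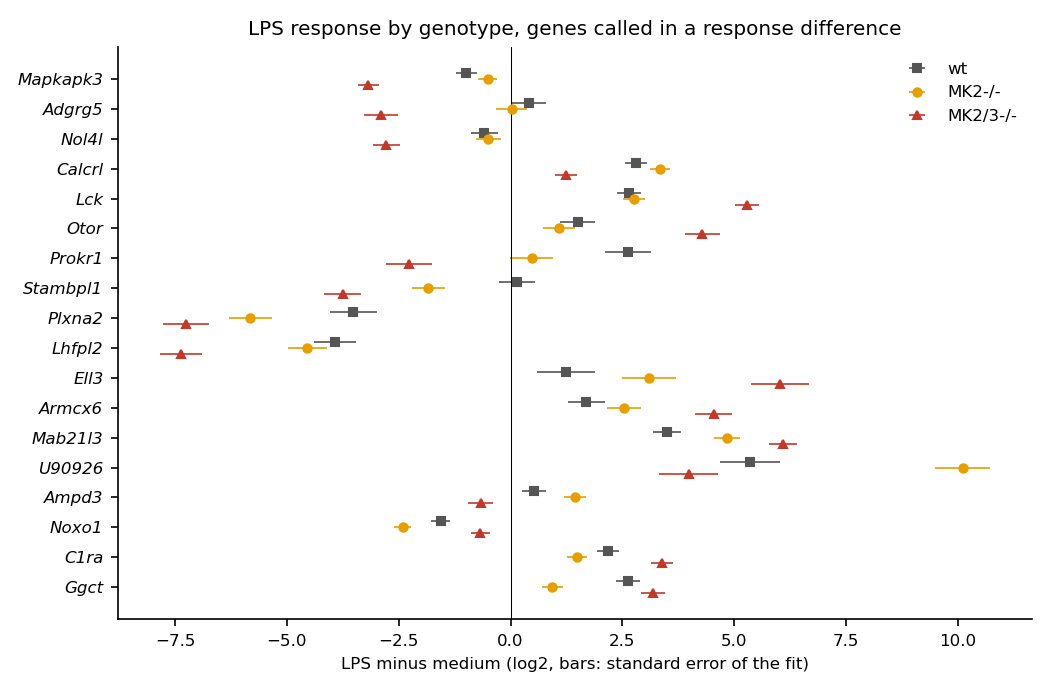
Difference between LPS and medium (log2, with the standard error of the fit) in wt (squares), MK2-/- (circles) and MK2/3-/- BMDM (triangles) for 18 genes named from the tests of the response. In MK2/3-/- BMDM Lck rises by 5.28 and Mapkapk3 falls by 3.18, and in both the other genotypes lie close to each other.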

How the data were processed

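The authors hybridised RNA of 22 BMDM samples to Agilent 1-colour mouse arrays and deposited, per array, the output of Feature Extraction 11.0.1.1, whose background-subtracted processed signal is an intensity on a linear scale, and a table of log2 values that the authors had normalised and centred per probe. Here the log2 processed signal of 55681 non-control probes was used, with flagged spots masked, spots of a probe averaged and arrays quantile-normalised. A probe had to be well above background on at least 3 arrays, and the probe with the highest mean stood for a gene. RefSeq accessions were named through the RefSeq annotation of GRCm38.p6, where 27509 of 29150 RefSeq probes had a symbol.

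Means of 6 groups were fitted to all 22 arrays with limma 3.58.1 (R 4.3.3), and adjusted p-values are Benjamini-Hochberg values over 22384 genes, called below 0.05. The number of arrays limits the precision. Members, lists, markers and tests were chosen with earlier results of these data known. Named genes were the deleted kinases, the 15 largest rises and 15 largest falls without overlap between treatments, core members of each list with its 3 largest changes and its largest change in the other direction, genes called in both response tests with the 5 highest and 5 lowest of each, and the 5 largest bounds in each direction, and further list members were added after their values were seen. Listed genes without a tested probe, such as Il12b, Mx1 and Cd68, were not analysed here.

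Same-letter MK2/3-/- samples, which had the same age, deviated together (r of 0.177, 0.298 and 0.418 in 3 of 3 pairs, against 2 of 9 unlike pairs over 0.1), so the array letter was treated as a pairing and fitted as an alternative. Other alternatives were scaling, background correction, filters, probe choice, array weights, the authors' table, the methods' t-test and leaving out each array.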

Additional observations from a re-analysis of the deposited data

Results flagged for a closer look

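Among the 4 LPS arrays of MK2/3-/- BMDM, 14 of 253 values had 1 array far from the others, its gap to the next array exceeding 0.829 of the whole range, and chance gives this in about 1 in 20 groups. Replicate 2 was the far array with a share of 0.884 for Jak2, 0.844 for Sqle and 0.938 for the median of cholesterol synthesis. Replicate 3 was the far array with a share of 0.923 for Rtn4rl1, 0.886 for Rel, 0.85 for Tnfaip3, 0.881 for Dusp5, 0.882 for Mertk, 0.881 for the median of the pro-inflammatory cytokines and 0.886 for the median of interferon signalling. Replicate 4 was the far array with a share of 0.875 for Tlr13, 0.84 for Hk2, 0.964 for Adgrg5 and 0.987 for Gm5086.

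The LPS response on the log2 scale differed from that of wt by limma's test of the difference with a smaller or more negative value for Mapkapk3 (-2.18, adjusted p = 0.0171), Lhfpl2 (-3.45, adjusted p = 0.0336), Plxna2 (-3.74, adjusted p = 0.0336), Adgrg5 (-3.31, adjusted p = 0.019), Calcrl (-1.57, adjusted p = 0.0468), Nol4l (-2.19, adjusted p = 0.0336), Prokr1 (-4.89, adjusted p = 0.0171) and Stambpl1 (-3.90, adjusted p = 0.0171). It was larger for Lck (2.64, adjusted p = 0.0171), Otor (2.78, adjusted p = 0.0338), Ell3 (4.78, adjusted p = 0.0331), Armcx6 (2.85, adjusted p = 0.0373) and Mab21l3 (2.59, adjusted p = 0.0243). Against MK2-/- BMDM the difference was negative for Mapkapk3 (-2.66, adjusted p = 0.00245), Adgrg5 (-2.92, adjusted p = 0.0396), Calcrl (-2.10, adjusted p = 0.0285), Nol4l (-2.28, adjusted p = 0.05), U90926 (-6.13, adjusted p = 0.015) and Ampd3 (-2.11, adjusted p = 0.0396), and positive for C1ra (1.91, adjusted p = 0.0396), Lck (2.53, adjusted p = 0.015), Otor (3.21, adjusted p = 0.0333), Ggct (2.24, adjusted p = 0.0285) and Noxo1 (1.74, adjusted p = 0.0396). Leaving out each of the 22 arrays in turn ended the call against MK2-/- BMDM 17 times for C1ra and 14 for Ampd3. It did so 13 times for Noxo1, 10 for Ggct and 4 for U90926.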

How the results depend on the processing

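Of 207 named genes called, 171 were called in every one of the settings that tested them (42 settings other than the reported one, 22 of which left out 1 array). Genes higher numbered 1680 without normalisation between arrays, 8966 over all probes singly (9641 lower) and 2719 with a minimum of 2-fold, and 3728 to 4661 when 1 array was left out (5573 to 6260 lower). With the array letter as a fixed replicate block, 3586 were higher and 5387 lower, and among named genes Tlr2, Cebpb, Mki67, Sdha, Rplp0, Rpl4, Lamp1, Ampd3 and Noxo1 were no longer called, Marco and Cd36 were called, and no other call of a named gene changed. The methods' t-test gave 4526 higher and 6124 lower unadjusted, and 3457 and 5085 after Benjamini-Hochberg adjustment.

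Genes whose response differed from wt numbered 5 with only the groups compared, 20 with 75th percentile scaling, 2 without normalisation, 255 with probes above background on all 22 arrays, 93 over all probes, 955 with array weights, 230 with a trend and robust fit, 327 and 350 with the replicate number or letter as a random block, 785 without the arrays high in collagen (a setting chosen after seeing the data), and 0 to 546 when 1 array was left out. Against MK2-/- BMDM they numbered 1 without normalisation, 20 and 20 with the stricter filters on dim probes (all arrays of a group, or all 22), 22 with the probe most induced in wt, 117 with weights, 19 with the trend, 22 and 23 with the blocks, and 1 to 39 when 1 array was left out. The cause was not tested.

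Signs turned with 75th percentile scaling for Cox5a (0.63), Rplp0 (0.38), Rps3 (0.075), Rps15 (0.0011), Lamp1 (0.11) and H2-K1 (0.86), and with the probe most induced in wt for Fam78a (0.23), Cdk1 (0.63), Stard4 (0.10), H2-K1 (0.43) and Cd80 (2.80). The medians of 11 of 34 lists changed sign in some setting. The number of arrays and, for genes near background, the signal limit these values.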

Other observations

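Among markers of cell types other than macrophages, the largest differences between LPS and medium in MK2/3-/- BMDM were those of genes associated with dendritic cells. Of 5 dendritic cell markers, 3 were called higher, against 20.3% of all genes, namely Zbtb46 by 5.14 (adjusted p = 1.03e-09), Ccr7 by 5.49 and Xcr1 (adjusted p = 7.51e-06), which was not well above background on any medium array, while Flt3 and Siglech were not called (-0.51 and -0.60). Zbtb46, a transcription factor of classical dendritic cells, stood at 6.64, 5.82 and 5.92 in medium and 11.56, 11.90, 10.34 and 11.29 with LPS, with no overlap between the treatments. The summed signal of the 5 markers was 80400 to 126000 in medium and 72800 to 110000 with LPS. Of the B cell markers, Cd79b was called lower (-2.86, adjusted p = 3.42e-05) while Cd79a, Ms4a1 and Pax5 were not called. The osteoclast markers Acp5 and Ocstamp were called higher (1.04 and 0.87), and Calcr and Dcstamp were not called (-0.22 and -1.64). Of the neutrophil markers, Camp was called higher (1.5, adjusted p = 0.0115) and Mpo, Elane, Ngp and Ltf were not called.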
